A study of Mus musculus with 10 samples.

Results

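The genes described here are 10 markers of blood vessel endothelium, chosen by name out of the 55421 genes counted in mouse testis: Pecam1, Cdh5, Kdr, Tek, Tie1, Flt1, Esam, Cldn5, Vwf and Egfl7. All 10 were found by symbol and all 10 passed the filter on low counts. RNA-seq was done on pairs of testes from postnatal day 21 (P21) mice, 3 wild type (Mov10+/+) libraries (replicates 1, 2 and 3) and 3 Mov10-/- libraries (replicates 2, 3 and 4). MOV10 is an RNA helicase, and the question was how the testis transcriptome differs without it. The Mov10-/- mice were global knockouts, in which Actb-Cre, driven by the ubiquitous β-actin promoter, had removed floxed exons of the helicase region, so that deletion was not limited to a cell type and included endothelium. The mice had a hybrid genetic background. A second assay, MOV10 CLIP-seq (sequencing of RNA crosslinked to and precipitated with MOV10), was done on P21 testes and gave 4 libraries (replicates 1, 2, 3 and 5).

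Endothelial cells line the blood vessels, which in the testis run through the interstitium between the seminiferous tubules. Their growth is driven by VEGF, read by the receptor tyrosine kinases VEGFR2 (Kdr) and VEGFR1 (Flt1), and their resting state by angiopoietins, read by TIE2 (Tek) with its partner TIE1. Neighbouring cells are held together by VE-cadherin (Cdh5), PECAM1, ESAM and claudin-5 (Cldn5), and von Willebrand factor (Vwf) is stored in their granules for release at sites of injury. Egfl7 encodes a secreted protein of the vessel wall and hosts miR-126, a microRNA of endothelium.

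The sequences shown are those of the Egfl7 locus and of the promoters of 3 members, which the results below return to. The mature miR-126a-3p, with its seed (bases 2 to 8) in capitals, lies inside Egfl7 at chr2:26591402-26591423 on the plus strand (RefSeq, GRCm38.p6).
mmu-miR-126a-3p: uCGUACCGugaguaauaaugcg
Its hairpin had 0 reads in all 6 RNA-seq libraries, which were made from poly(A) RNA. The hairpin shares exonic bases with Egfl7, and reads in shared bases can be left unassigned in counting. With the counting mode not given, the 0 says nothing of the level of the microRNA.

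The RefSeq promoter table held 6 of the 10 members (Egfl7, Tek, Tie1, Kdr, Flt1 and Cldn5), and did not hold Pecam1, Cdh5, Esam or Vwf. The 250 bases upstream of a start site were searched on both strands for CAGGAA and CCGGAA, letters read by ETS factors such as ERG and FLI1, 2 motifs that cannot occupy the same bases on a strand. Egfl7 has 3 such windows, and the first 2 hold a motif, as does that of Kdr, while that of Cldn5 holds none. Capitals mark the motif, on either strand.
Egfl7, chr2:26580833-26581082, plus strand: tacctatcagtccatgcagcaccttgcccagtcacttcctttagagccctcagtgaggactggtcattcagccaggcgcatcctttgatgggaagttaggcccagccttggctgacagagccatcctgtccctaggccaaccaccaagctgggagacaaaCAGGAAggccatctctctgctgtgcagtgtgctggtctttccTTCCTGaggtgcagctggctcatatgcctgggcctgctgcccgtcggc
Egfl7, chr2:26583615-26583864, plus strand: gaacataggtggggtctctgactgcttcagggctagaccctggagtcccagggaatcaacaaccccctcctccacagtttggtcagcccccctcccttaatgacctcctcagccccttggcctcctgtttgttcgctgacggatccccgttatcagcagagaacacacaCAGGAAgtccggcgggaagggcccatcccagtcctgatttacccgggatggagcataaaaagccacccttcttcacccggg
Kdr, chr5:75978456-75978705, minus strand: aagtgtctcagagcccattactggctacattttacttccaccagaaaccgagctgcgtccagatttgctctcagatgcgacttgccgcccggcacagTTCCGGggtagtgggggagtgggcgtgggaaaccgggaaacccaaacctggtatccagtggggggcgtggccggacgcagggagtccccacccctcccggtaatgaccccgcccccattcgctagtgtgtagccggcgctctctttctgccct
Cldn5, chr16:18776597-18776846, plus strand: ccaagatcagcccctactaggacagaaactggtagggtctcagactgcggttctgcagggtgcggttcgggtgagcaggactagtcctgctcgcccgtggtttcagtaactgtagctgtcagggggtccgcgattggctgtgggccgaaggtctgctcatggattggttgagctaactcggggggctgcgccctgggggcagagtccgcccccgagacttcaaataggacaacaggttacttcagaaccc
At least 1 motif was in 5 of the 8 member windows, from 4 members (Egfl7, Tek, Tie1 and Kdr), and in 35.1% of the 32851 promoter windows of this length. A match describes letters and not a bound site, and a window without one says nothing of the factor.

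The RNA-seq libraries held 5083407 to 9230540 reads assigned to genes, and a single read was worth 0.108 to 0.197 CPM (counts scaled to a common library size, here with TMM factors for the members). Mov10-/- replicate 3 had the fewest reads, with 57.2% of its reads not aligned against 26.5 to 35.9% in the others. Mov10 itself measured 110 ± 11.9 CPM in wild type and 27.4 ± 1.38 CPM in Mov10-/- testes (mean ± SD, n = 3 each), a log2 fold change of -2.00 (SE 0.12, adjusted p = 0.00552 by the quasi-likelihood test of edgeR, Benjamini-Hochberg adjusted), with counts taken over the whole gene and not over the deleted exons alone. Wild type replicate 2 stood apart in genes of spermatids, the haploid germ cells that are first formed at about this age. Akap4, a protein of the sperm tail, measured 81.5, 191 and 46.7 CPM in wild type replicates 1, 2 and 3 and 9.51, 32.9 and 16.1 CPM in Mov10-/- replicates 2, 3 and 4.

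Endothelial transcripts as a group were present at moderate levels in every library, and no member passed the threshold for a difference between genotypes. Summed over the 10 members, the level was 181, 183 and 197 CPM in wild type and 244, 218 and 238 CPM in Mov10-/- testes. The groups did not overlap, with 187 ± 8.83 CPM against 233 ± 13.7 CPM (mean ± SD, n = 3 each). The fitted log2 fold change was above 0 for 10 of the 10 members, against 53.8% of all 20240 genes tested. This was not particular to the members. In lists described below it was above 0 for 11 of 11 Sertoli cell, 10 of 10 spermatocyte, 9 of 10 pericyte and 11 of 12 macrophage genes. Among spermatid genes it was above 0 for 1 of 19. The members were measured in the same libraries and are not independent. The median log2 fold change over the members was 0.22, against 0.03 over all genes. Each library is a whole testis pair, and CPM is a share of its reads. More endothelial cells, more of these RNAs per cell and a smaller share of RNA from other cells cannot be told apart. Spermatid genes, described below, had a median log2 fold change of -2.22.

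The thresholds of the study's methods, more than 2-fold with an adjusted p below 0.05, were passed by 0 members in either direction by edgeR's quasi-likelihood test, as they were by 0% of all genes for higher and 0.00494% for lower. DESeq2, edgeR's exact test and limma voom also called 0 members, and the smallest adjusted p for a member under any of these was 0.0547 (Cdh5, DESeq2). Over all 20240 genes, DESeq2 called 51 higher and 988 lower, the exact test 70 and 1031, and voom 1 and 1. At an unadjusted p under 0.05, 3 of 10 members were higher (Cdh5, Egfl7 and Cldn5), against a background of 5.57% of all genes, and 0 were lower, against 11.9%. For these same 3 genes every Mov10-/- library lay above every wild type library, against 11.9% of all genes, and for 0 members did every one lie below, against 14.1%. The count of 3 at an unadjusted p fell to 1 without Mov10-/- replicate 3, without Mov10-/- replicate 4 or without wild type replicate 1. The median log2 fold change was 0.36 without Mov10-/- replicate 3. With 3 libraries against 3, an exact permutation test of a single gene cannot go below 0.1.

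**Figure D1:**
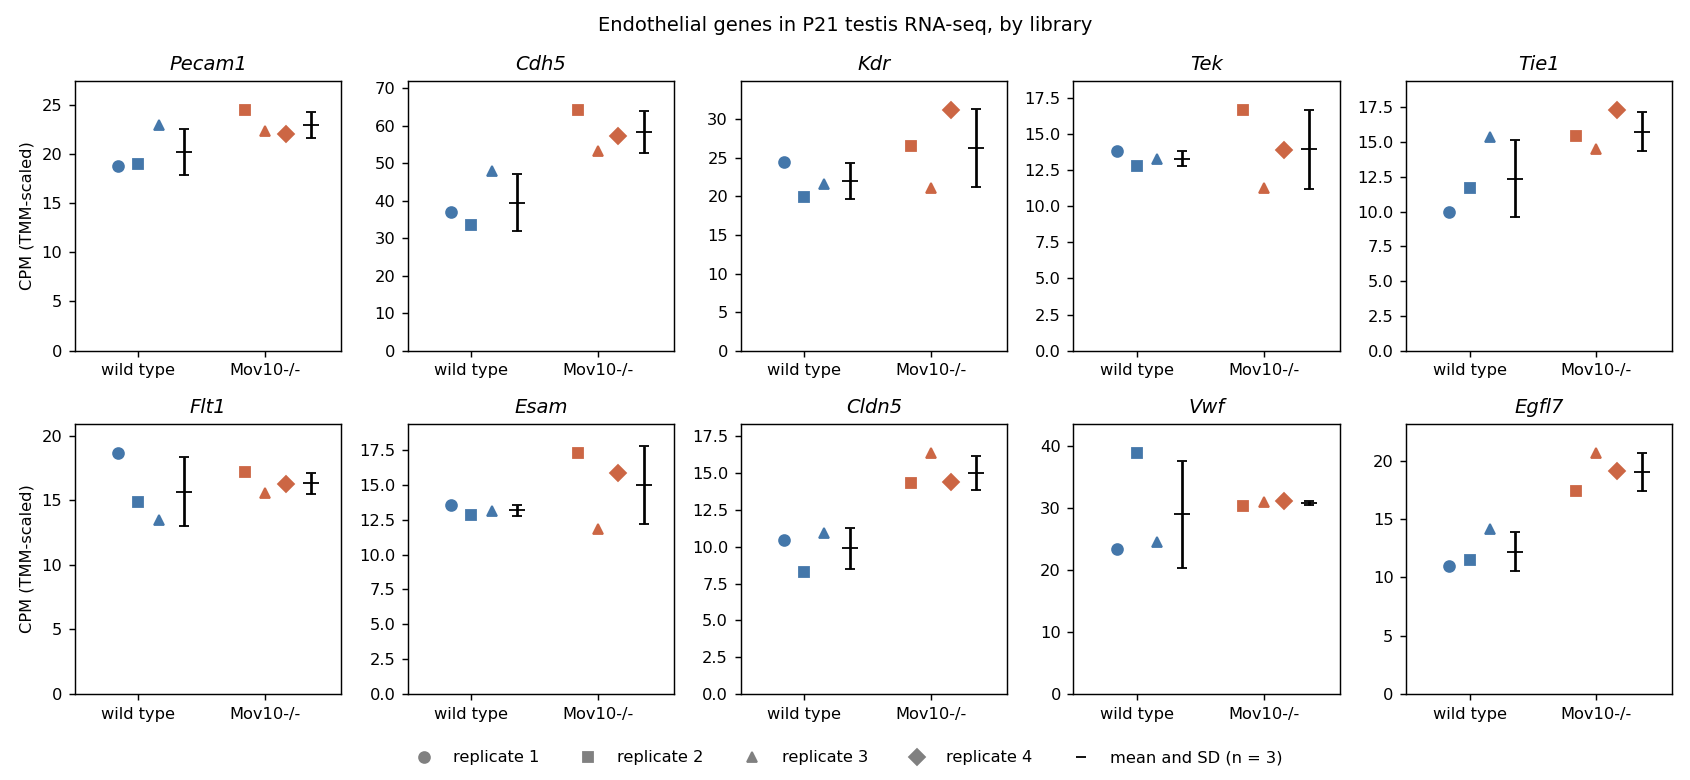
CPM (TMM-scaled, y axis from 0) of each of the 10 endothelial genes in the 3 wild type and 3 Mov10-/- libraries, 1 panel a gene, with the mean and SD of each genotype beside the points and the marker shape giving the replicate number. The genotypes do not overlap for Cdh5, Cldn5 and Egfl7 and overlap for the other 7 genes, and wild type replicate 2 is the highest library for Vwf.

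Among the junction proteins, Cdh5 and Cldn5 lay higher in every Mov10-/- library, while Pecam1 and Esam overlapped between genotypes. Cdh5 (chr8:104101625-104144511, plus strand) encodes VE-cadherin, the adhesion molecule of endothelial adherens junctions. It measured 37.0, 33.4 and 48.0 CPM in wild type and 64.2, 53.4 and 57.4 CPM in Mov10-/- testes. The lowest Mov10-/- library was above the highest wild type library, the log2 fold change was 0.56 (SE 0.17, 95% interval 0.18 to 0.95) and the ratio 1.48. Its unadjusted p was 0.0101 and its adjusted p 0.167 by the quasi-likelihood test of edgeR, Benjamini-Hochberg adjusted. The unadjusted p stayed under 0.05 with any 1 of the 6 libraries left out (0.00306 to 0.0340), with log2 fold changes of 0.46 to 0.72.

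Cldn5 (chr16:18776847-18778262, plus strand, a single exon) encodes the main claudin of endothelial tight junctions. It measured 10.4, 8.32 and 10.9 CPM in wild type and 14.3, 16.4 and 14.4 CPM in Mov10-/- testes, again without overlap. The log2 fold change was 0.60 (SE 0.24, 95% interval 0.05 to 1.15) and the ratio 1.52, with an unadjusted p of 0.0367 and an adjusted p of 0.254 by edgeR's quasi-likelihood test. Its unadjusted p was above 0.05 whichever library was left out (0.0548 to 0.0927). With 565 reads in all, Cldn5 was the member with the fewest.

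Pecam1 (chr11:106654217-106750628, minus strand), a homophilic adhesion receptor also carried by platelets and leukocytes, measured 18.8, 18.9 and 22.9 CPM in wild type and 24.5, 22.3 and 22.0 CPM in Mov10-/- testes. Wild type replicate 3 lay within the Mov10-/- range, and the log2 fold change was 0.18 with a 95% interval of -0.25 to 0.62. Esam (chr9:37528078-37538319, plus strand), an immunoglobulin-like adhesion molecule of endothelium and platelets, measured 13.6, 12.8 and 13.2 CPM in wild type and 17.3, 11.9 and 15.8 CPM in Mov10-/- testes. Mov10-/- replicate 3 was the lowest and replicate 2 the highest of all 6 libraries, and the interval ran from -0.36 to 0.74 around 0.19. Within a library, the ratio of Cdh5 to Pecam1 per length was 2.93, 2.61 and 3.11 in wild type and 3.89, 3.55 and 3.87 in Mov10-/- testes, without overlap. The ratio of Cldn5 to Cdh5 overlapped, with 0.750 ± 0.0814 in wild type and 0.772 ± 0.126 in Mov10-/- testes (mean ± SD, n = 3 each). The Cdh5 to Pecam1 ratio was 1 of 4 ratios computed, and the other 3 overlapped.

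Egfl7 (chr2:26580014-26593120, plus strand), the secreted factor, had the highest fitted log2 fold change of the members. It measured 11.02, 11.45 and 14.11 CPM in wild type and 17.4, 20.7 and 19.2 CPM in Mov10-/- testes. The groups did not overlap, the log2 fold change was 0.64 (SE 0.22, 95% interval 0.13 to 1.15) and the ratio 1.56. Its unadjusted p was 0.0200 and its adjusted p 0.204 by the quasi-likelihood test of edgeR, Benjamini-Hochberg adjusted, and the unadjusted p stayed under 0.05 in 3 of the 6 fits that left out a library. Of its exonic length, 9.41% was shared with other genes on the same strand (Gm20532, with 0 reads in all 6 libraries, and Mir126a) and 3.41% with genes on the other strand (Mir126b and Agpat2). The counting mode and use of strand are not given in the sources used here, so reads in either stretch cannot be told apart. Shared reads can be left unassigned, so the 0 reads on Gm20532 do not show that it was silent. The other 9 members shared no exonic base with another gene.

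The 4 receptor tyrosine kinases overlapped between genotypes. Kdr (chr5:75932827-75978458, minus strand), the main signalling receptor for VEGF-A, measured 24.5, 19.9 and 21.6 CPM in wild type and 26.6, 21.1 and 31.2 CPM in Mov10-/- testes, with Mov10-/- replicate 3 inside the wild type range. Flt1 (chr5:147561604-147726011, minus strand), a VEGF receptor that also has a soluble form acting as a decoy, measured 18.6, 14.9 and 13.5 CPM in wild type and 17.2, 15.5 and 16.2 CPM in Mov10-/- testes, and its Mov10-/- libraries all lay inside the wild type range. The log2 fold changes were 0.26 for Kdr (95% interval -0.22 to 0.74) and 0.06 for Flt1 (95% interval -0.45 to 0.57). The ratio of Kdr to Flt1 per length was 2.12 ± 0.239 in wild type and 2.41 ± 0.433 in Mov10-/- testes (mean ± SD, n = 3 each), with overlap.

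Tek (chr4:94739289-94874976, plus strand), the angiopoietin receptor, measured 13.8, 12.8 and 13.3 CPM in wild type and 16.7, 11.3 and 13.9 CPM in Mov10-/- testes. Its wild type SD of 0.511 CPM was below the 1.26 CPM that counting alone would give. Mov10-/- replicates held both the lowest and the highest value, and the log2 fold change was 0.07 (95% interval -0.48 to 0.63). Tie1 (chr4:118471191-118490061, minus strand), its coreceptor, measured 9.96, 11.7 and 15.4 CPM in wild type and 15.4, 14.5 and 17.3 CPM in Mov10-/- testes. Only wild type replicate 3 reached the Mov10-/- range, and the log2 fold change was 0.35 (95% interval -0.23 to 0.93). The ratio of Tek to Tie1 per length was 1.16 ± 0.276 in wild type and 0.924 ± 0.176 in Mov10-/- testes, with overlap.

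Vwf (chr6:125546774-125686679, plus strand), the clotting glycoprotein, measured 23.4, 38.8 and 24.6 CPM in wild type and 30.4, 30.9 and 31.1 CPM in Mov10-/- testes. Wild type replicate 2 was the highest of all 6 libraries and the other 2 wild type libraries were the lowest. The wild type SD of 8.58 CPM compared with 1.86 CPM from counting alone, and the Mov10-/- SD of 0.365 CPM with 2.14 CPM. The log2 fold change was 0.09 (95% interval -0.43 to 0.61), and 0.36 (unadjusted p = 0.0592, edgeR's quasi-likelihood test) without wild type replicate 2. That replicate also had the most spermatid transcripts, and their part in the result was not tested. The sign turned for Vwf without wild type replicate 1 (-0.061) or 3 (-0.027), for Flt1 without wild type replicate 3 (-0.048) and for Tek without Mov10-/- replicate 2 (-0.076).

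**Figure D2:**
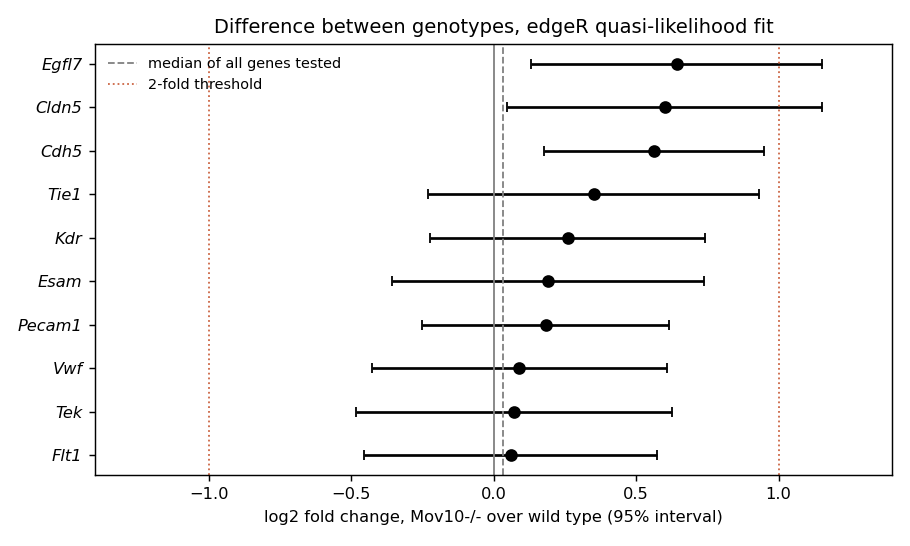
Log2 fold change of Mov10-/- over wild type (x axis) for each endothelial gene (y axis, sorted), with the 95% interval of the edgeR quasi-likelihood fit, the median of all genes tested as a dashed line and the 2-fold threshold as dotted lines. The intervals of Egfl7, Cldn5 and Cdh5 lie above 0, those of the other 7 genes span 0, and no point reaches the threshold.

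Compared per length, as RPKM (CPM divided by the exonic length in kilobases), the members spanned a wide range. In wild type testes Cdh5 was at the top with 9.39 ± 1.81 RPKM, followed by Cldn5 (6.98 ± 0.974), Esam (4.60 ± 0.137), Egfl7 (3.41 ± 0.468), Pecam1 (3.24 ± 0.374), Tek (2.82 ± 0.108), Tie1 (2.51 ± 0.564), Kdr (2.44 ± 0.258), Vwf (1.80 ± 0.534) and Flt1 (1.16 ± 0.198; mean ± SD, n = 3 each). Neighbours whose libraries overlapped, and which are therefore not ordered beyond their spread, were Egfl7 and Pecam1, Tek and Tie1, Tie1 and Kdr, and Kdr and Vwf. In Mov10-/- testes the order began Cdh5 (13.9 ± 1.30 RPKM), Cldn5 (10.6 ± 0.822), Egfl7 (5.33 ± 0.454) and Esam (5.23 ± 0.980), and ended with Flt1 (1.21 ± 0.0602). The length was the union of all annotated exons, 1416 bases for Cldn5 and 16064 for Vwf, so a gene mostly expressed as a short isoform is understated.

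**Figure D3:**
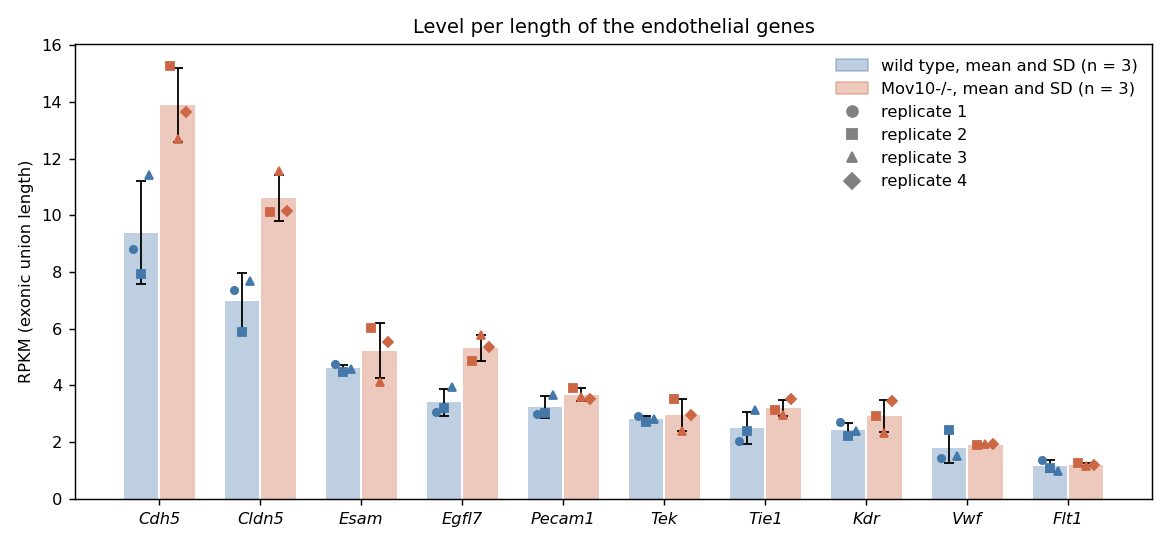
RPKM (y axis from 0) of the 10 endothelial genes, ordered by the wild type mean, as bars for the mean of each genotype with the SD and with 1 point a library. Cdh5 and Cldn5 have the highest bars in both genotypes and Flt1 the lowest.

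To set aside shifts shared by all members, each gene's log2 CPM was taken relative to the mean of the other members in the same library. On this scale Cldn5 was 0.34 and Egfl7 0.38 higher in Mov10-/- than in wild type testes, and these were the only members without overlap. Cdh5 was 0.30 higher, with overlap. Of the members, 4 had their highest CPM in Mov10-/- replicate 2, 2 in replicate 3 and 2 in replicate 4, while wild type replicate 1 (Flt1) and wild type replicate 2 (Vwf) held the highest value of 1 gene each.

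Other genes of endothelium gave a like picture of intervals mostly spanning 0. Of 29 further surface and adhesion genes, 28 were tested (not Sele), and the median log2 fold change was 0.30. The unadjusted p was under 0.05 for 3 higher genes and 0 lower ones, against 5.57% and 11.9% of all genes. Without overlap, 7 were higher and 0 lower, against 11.9% and 14.1% of all genes. Eng, a TGF-β coreceptor of endothelium, measured 44.0 ± 6.80 CPM in wild type and 62.3 ± 4.21 CPM in Mov10-/- testes, a log2 fold change of 0.50 (95% interval 0.16 to 0.84). Robo4, a guidance receptor that stabilises vessels, had 0.75 (0.08 to 1.42), and Gja4, the gap junction protein connexin 37 of arteries, 0.69 (0.02 to 1.36). The log2 fold change was above 0 for 23 of the 28 genes tested, against 53.8% of all genes. Those below 0 were Gja5 (-0.37, interval -1.21 to 0.46), Adgrl4 (-0.37), Aplnr (-0.26), Esm1 (-0.22) and Vcam1 (-0.15). Clec14a had 0.61 (-0.06 to 1.28). The capillary markers Emcn and Plvap had 0.47 (-0.13 to 1.07) and 0.63 (-0.23 to 1.48). The smallest adjusted p in the list was 0.167 by edgeR's quasi-likelihood test. Of 15 endothelial signalling genes, 2 were higher at an unadjusted p under 0.05, Tmem204 (0.59) and Exoc3l (0.45), and 0 were lower. The median was 0.25, and Rhoj had 0.49 and Shank3 0.58. The log2 fold change was above 0 for 13 of the 15, and below 0 for Arhgef15 (-0.27) and Kank3 (-0.10). Without overlap, 4 of the 15 were higher and 0 lower, against 11.9% and 14.1% of all genes.

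Among 16 transcription factors of endothelium tested, genotypes without overlap were seen for 1 gene in each direction. Every Mov10-/- library lay below every wild type library for Sox17, against 14.1% of all genes. Every one lay above for Foxf1, against 11.9% of all genes. Sox17, a SOX factor of arterial endothelium that is also transcribed in spermatogenic cells, measured 24.4, 31.6 and 23.0 CPM in wild type and 10.5, 13.1 and 13.4 CPM in Mov10-/- testes, without overlap. Its log2 fold change was -1.09 (95% interval -1.62 to -0.57), with an adjusted p of 0.150 by the quasi-likelihood test of edgeR, Benjamini-Hochberg adjusted. Sox18, its relative in endothelium, had 0.36 (-0.32 to 1.04), and the ETS factors Erg and Fli1 had 0.19 (-0.40 to 0.78) and 0.18 (-0.52 to 0.87). Gata2 (-0.82, interval -1.75 to 0.11) and Klf4 (-0.52, interval -1.16 to 0.13) were highest in wild type replicate 2, and Foxf1 had 0.48 (-0.25 to 1.21). Of 18 factors 16 were tested (not Etv2 or Hhex), and the median was 0.18. At an unadjusted p under 0.05, 0 were higher and 1 lower, against 5.57% and 11.9% of all genes.

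The ligands and coreceptors of the VEGF and angiopoietin pathways, 13 genes, had a median log2 fold change of 0.34. In either direction 0 were past an unadjusted p of 0.05, against 5.57% of all genes higher and 11.9% lower. Without overlap, 4 were higher and 0 lower, against 11.9% and 14.1% of all genes. Vegfa, the main ligand of Kdr, measured 24.1, 22.1 and 31.3 CPM in wild type and 36.2, 38.5 and 29.1 CPM in Mov10-/- testes, with a log2 fold change of 0.42 (-0.05 to 0.88). Pgf, a ligand of Flt1, had -0.71 (-1.48 to 0.06). Vegfb and Vegfc had 0.39 and 0.38, the coreceptor Nrp1 0.24 and the lymphatic VEGF receptor Flt4 -0.18. The TIE2 ligands were low in the wild type, Angpt1 at 1.31 ± 0.494 CPM, Angpt2 at 5.35 ± 0.620 CPM and Angpt4 at 3.95 ± 1.86 CPM. Their log2 fold changes were 1.03, 0.34 and 1.03, and the interval of each spanned 0. Svep1, an extracellular matrix protein, had 0.68 (-0.04 to 1.41).

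In the Notch and ephrin pathway, which sets arterial identity, the median of 13 genes was 0.30. At an unadjusted p under 0.05, 2 were higher and 0 lower, against 5.57% and 11.9% of all genes. The 2 higher genes were the ligand Jag2 (0.52, interval 0.12 to 0.91) and the receptor Notch1 (0.48, interval 0.06 to 0.90), both also used outside endothelium. Rbpj had 0.30 and Efnb2 0.48. The endothelial members of the pathway, Dll4 and Notch4, had 0.24 (-0.41 to 0.89) and -0.06 (-0.65 to 0.54). Among 15 junction partners the median was 0.15, with 2 higher at an unadjusted p under 0.05 and 0 lower. The 2 were Cldn11 (0.31), the claudin of Sertoli cell junctions, and Ctnna1 (0.27), the α-catenin that anchors cadherins. Without overlap, 6 of the 15 were higher and 0 lower, against 11.9% and 14.1% of all genes. Ctnnb1 and Afdn had 0.21 each.

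Markers of other cell types were counted in the same libraries, since a testis pair holds them all. Of all genes tested, 5.57% were higher and 11.9% lower at an unadjusted p under 0.05. In 10 pericyte genes, of the mural cells that wrap capillaries, the median log2 fold change was 0.48. At an unadjusted p under 0.05, 3 genes were higher (Notch3 0.56, Abcc9 0.60, Pdgfrb 0.52) and 0 lower, with Cspg4 at 0.51. The log2 fold change was above 0 for 9 of the 10, and Ndufa4l2 had -0.44 (interval -1.06 to 0.19). In 8 peritubular myoid genes the median was 0.33, with 3 higher at that p (Tpm2 0.45, Mylk 0.32, Acta2 0.29) and 0 lower, and Myh11 at 0.34. Of the 8, 7 were above 0, and Actg2 had -0.47 (interval -1.46 to 0.51). In 11 Sertoli cell genes tested of 12 the median was 0.31, with 6 higher, among them Cldn11, Aard (0.29), Wt1 (0.37) and Inha (0.34), and 0 lower. Macrophage genes (12, median 0.40) and Leydig cell genes (8 of 9, median 0.24) had 0 past an unadjusted p of 0.05. C1qc, Csf1r, C1qa and Ptprc had 0.49, 0.51, 0.41 and 0.62, and Nr5a1, Hsd3b6, Star and Hsd3b1 had 0.23, 0.34, 0.53 and 0.25. The medians of these 5 somatic lists were all above the 0.22 of the endothelial members. Summed levels in wild type and Mov10-/- testes were 180 to 201 and 216 to 267 CPM for pericyte genes, 614 to 681 and 702 to 896 CPM for peritubular genes, and 869 to 985 and 1057 to 1252 CPM for Sertoli cell genes, without overlap. They were 338 to 541 and 435 to 583 CPM for macrophage genes and 438 to 687 and 546 to 769 CPM for Leydig cell genes, with overlap.

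Germ cell lists differed by stage. At an unadjusted p under 0.05, 5.57% of all genes were higher and 11.9% lower. Spermatogonial genes (10) had a median of 0.24, with 1 higher at an unadjusted p under 0.05, Stra8 (0.37), beside Sall4 (0.42), Dmrt1 (0.25) and Uchl1 (0.23). Spermatocyte genes (10) had a median of 0.09 and 0 past that p, with Dmc1 at 0.22, Tex101 at 0.16, Spo11 at 0.14 and Sycp1 at 0.08. In spermatid genes, 19 tested of 20, the median was -2.22, and 16 were lower and 0 higher at an unadjusted p under 0.05. Izumo1, Akap4, Catsper3 and Tnp2 had -2.57, -2.48, -2.90 and -5.34, the last with 0 reads in 1 Mov10-/- library. The spermatid genes' summed level ran from 703 to 1808 CPM in wild type and from 424 to 815 CPM in Mov10-/- testes. Among the genes tested, every Mov10-/- library lay below every wild type library for 12 of 19 spermatid genes, against 14.1% of all genes. Every Mov10-/- library lay above for 5 of 11 Sertoli cell, 5 of 10 pericyte, 6 of 8 peritubular and 2 of 10 spermatogonial genes, against 11.9%. These are the same libraries as those of the endothelial values, and the part of these cell types in them was not tested.

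**Figure D4:**
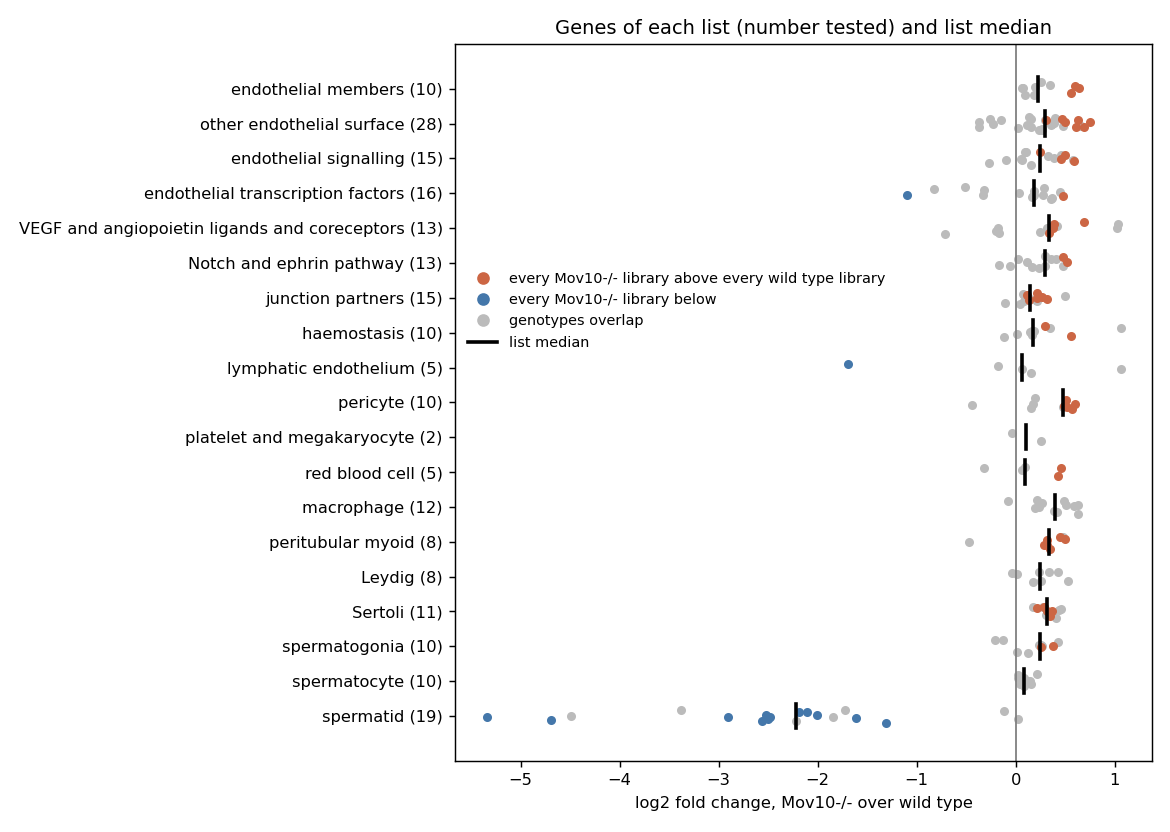
Log2 fold change of Mov10-/- over wild type (x axis) of every gene tested in each list (y axis, number of genes in brackets), with the list median as a black bar and genes whose genotypes do not overlap in colour. The endothelial and other somatic lists have medians between 0.06 and 0.48, and the spermatid list has a median of -2.22.

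Blood cell genes were counted as well, since platelets also carry PECAM1, ESAM and VWF. Of 9 platelet and megakaryocyte genes only 2 passed the filter, Pf4 (7.19 CPM in wild type and 8.60 CPM in Mov10-/- testes) and Itga2b (8.23 and 8.04 CPM). The defining gene Treml1 had 0 reads in all 6 libraries, Ppbp had 0 in every wild type library and 0.247, 0.205 and 0.246 CPM in the Mov10-/- libraries, Gp1bb had 0 in all but 1 Mov10-/- library (0.370 CPM), and the mean of each of the 7 untested genes was below 1 CPM in both genotypes. The summed level of the list was 15.9 to 17.4 CPM in wild type and 14.7 to 19.0 CPM in Mov10-/- testes. Red blood cell genes (5 tested of 7) had a median of 0.09, with Hbb-bs at 0.46, Hba-a1 at 0.43, Hba-a2 at -0.32 and Hbb-bt at 0.09. In either direction 0 were past an unadjusted p of 0.05, against 5.57% of all genes higher and 11.9% lower. Without overlap, 2 of the 5 were higher (Hbb-bs and Hba-a1) and 0 lower, against 11.9% and 14.1% of all genes. Reads of near-identical globin copies may be split between them.

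All protein-coding genes tested other than the members were ranked by how like the mean of the members their log2 CPM was over the 6 libraries. The first 5 were Lpl, Hdac10, Uba7, Sdc3 and Susd2, with Pearson r of 0.991, 0.987, 0.986, 0.985 and 0.980. Lpl, the lipase held on the capillary surface, measured 13.5, 14.2 and 20.3 CPM in wild type and 37.8, 27.6 and 35.9 CPM in Mov10-/- testes. Both genotypes enter this measure, so a gene with any steady difference scores high. Of 15721 genes, 249 had r above 0.9, and the values are a description only.

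In MOV10 CLIP-seq the members were at the limit of detection. Libraries held 3404 to 4934 reads on genes, with 99.5 to 99.6% of their reads not aligned. Replicates 1, 2 and 3 differed by less than the sampling noise (chi-square per degree of freedom 0.219 to 0.237, against 1.63 to 1.93 with replicate 5) and were counted as 1 sample. Pecam1 had 2, 1, 1 and 0 reads in replicates 1, 2, 3 and 5, and Cdh5 had 0, 0, 0 and 1. The other 8 members had 0 reads in all 4 libraries. A count of 0 allows up to 608 to 881 CPM in these libraries (3 reads, counting error only), while the members measured 9.88 to 39.5 CPM in wild type RNA-seq, so binding at the level of the transcript was not detectable at this depth.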

How the data were processed

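The deposited values are raw read counts for each Ensembl gene, 1 file a library, as the authors made them. Per their methods, reads from a stranded poly(A) kit were trimmed, aligned with STAR to mm10 and counted with htseq-count on Ensembl v99. Counting mode and strand setting are not given in the sources used here. For the CLIP-seq reads the methods refer to earlier work and to scaling by mapped reads, while the deposited CLIP-seq files hold raw counts in the same layout. The 5 rows that name no gene were left out (26.5 to 57.2% of RNA-seq reads not aligned, 10.0 to 18.7% outside genes, and 99.5 to 99.6% of CLIP-seq reads not aligned). Names, coordinates and lengths came from GENCODE M21 (GRCm38), which matched 55240 of 55421 genes.

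Genotypes were compared with edgeR 4.0.16 in R 4.3.3 (TMM, quasi-likelihood test, Benjamini-Hochberg adjustment over all 20240 genes above 1 CPM in at least 3 of 6 libraries). The SE was taken as the log2 fold change over the root of F, and log2 CPM used a prior count of 0.5. DESeq2 1.42.0, edgeR's exact test, limma 3.58.1 (voom), other size factors and filters, a replicate block and leaving out each library were the alternatives. The methods name 3 pairs of testes a genotype, and nothing says how the mice were related. The p-values therefore set the genotype difference against the spread between these libraries only.

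All 10 members are described. From each list the genes with the 4 smallest p were named, with a set of pathway genes (Vegfa, Vegfb, Vegfc, Pgf, Flt4, Nrp1, Angpt1, Angpt2, Emcn, Eng, Plvap, Erg, Fli1, Sox17, Sox18, Dll4 and Notch4), Mov10 and the 5 genes most like the members, except 1 gene that is not reported here. Members and lists were chosen with earlier results of these data known. The platelet genes named beside Pf4 and Itga2b were chosen after their values were seen. So were Gja5, Adgrl4, Aplnr, Esm1, Vcam1, Kank3, Arhgef15, Ndufa4l2 and Actg2, which were named because they went lower.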

Additional observations from a re-analysis of the deposited data

Results flagged for a closer look

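1 value stood out by its gap to the others in a group of 4 libraries. The CLIP-seq count on Cdh5 was 1 read in replicate 5 and 0 in the other 3 libraries, of which replicates 1, 2 and 3 count as 1 sample. Any single read in 1 of 4 libraries gives the widest gap this comparison can find, so the usual chance rate of about 1 in 20 groups does not apply, and 1 read is within counting error.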

How the results depend on the processing

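No member was called under any alternative. The number higher at an unadjusted p under 0.05 was 3 in the main analysis and 2 with the exact test or without a filter. It was 0 with the replicate block, and 1 to 2 with 1 library left out. In that block wild type replicate 1 and Mov10-/- replicate 4 have no partner, so only replicates 2 and 3 inform the genotype difference. The median log2 fold change was 0.18 to 0.36 with 1 library left out. With the replicate block Vwf turned to -0.015. With 1 library left out, Tek ran from -0.076 (without Mov10-/- replicate 2) to 0.20, Flt1 from -0.048 (without wild type replicate 3) to 0.19, and Vwf from -0.061 (without wild type replicate 1; -0.027 without replicate 3) to 0.36. The cause was not tested. Over all genes, 0 were called higher and 1 lower in the main analysis, against 51 and 988 by DESeq2, 70 and 1031 by the exact test, 36 and 145 with the replicate block, 5 and 5 without a filter, 3 and 3 with library totals and 1 and 1 by voom. Replicate numbers 2 and 3 occur in both genotypes. No label says that a number marks a litter or batch, so the libraries were not taken as paired. Deviations from the group mean correlated at -0.449 and -0.344 between same-numbered libraries. Deviations from a mean of 3 libraries depend on each other, and there are 2 such pairs, so these signs cannot decide whether the numbers mark pairs. Genes with few reads, such as Cldn5 with 565, are limited by depth.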

Other observations

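Genes of haemostasis and of lymphatic vessels were counted in the same libraries. Of 11 haemostasis genes 10 were tested (not Adamts13), and the median log2 fold change was 0.18. By edgeR's quasi-likelihood test 0 passed an unadjusted p of 0.05 in either direction (5.57% of all genes higher, 11.9% lower). Without overlap, 2 were higher, against 11.9% of all genes. Plat, the tissue plasminogen activator, measured 61.2 ± 8.85 CPM in wild type and 74.9 ± 5.55 CPM in Mov10-/- testes (mean ± SD, n = 3 each), a log2 fold change of 0.29 (95% interval -0.02 to 0.60). Mmrn1 had 1.06 (-0.38 to 2.50) and Tgm2 0.15 (-0.20 to 0.50).

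Of 7 lymphatic genes 6 were matched to 1 identifier each and 5 were tested, with a median of 0.06. Prox1, the transcription factor of lymphatic identity, measured 8.56, 20.2 and 5.35 CPM in wild type and 4.08, 2.45 and 3.81 CPM in Mov10-/- testes, without overlap and highest in wild type replicate 2. Its log2 fold change was -1.70 (95% interval -2.91 to -0.48), with an adjusted p of 0.179. Lyve1, a hyaluronan receptor of lymphatic vessels and some macrophages, had 0.06, Reln 0.15 and Flt4 -0.18. Pdpn had 0 reads in all 6 libraries.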
